A study of Mus musculus with 21 samples.

Results

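Long non-coding RNAs (lncRNAs) are transcripts with no annotated protein product, and this account follows those present at a substantial level in mouse cumulus-oocyte complexes, in which somatic cumulus cells of the granulosa lineage enclose the egg cell. A gene was included if the deposited table gave it the biotype lncRNA and its mean over 3 libraries reached 10 CPM (counts scaled to a common library total) in at least 1 of 7 groups. Of 56980 genes, 10055 were lncRNAs, 6060 of these had at least 1 count, and 76 met the rule. The genes were thus chosen by their measured CPM levels, so the order of their levels is a description, and a gene that reached 10 CPM only in the higher of the groups being compared had to differ between them. By the same rule 10323 of 21908 protein-coding genes would be kept, and 6 of 1542 genes with no biotype.

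All complexes came from ovaries of wild-type (WT) mice of an age not given in the sources used here, and all cultured complexes matured in medium with serum and epidermal growth factor. The groups were complexes taken before culture with no treatment (START), complexes cultured for 4, 8 or 12 h with the solvent DMSO (CTL), and complexes cultured for the same times with 10 µM of a proprotein convertase inhibitor (PCI), each in 3 libraries that the labels call biological replicates. Proprotein convertases are proteases that cut and so activate secreted precursor proteins, and the study asked how blocking them alters the complex during maturation. Whether replicates were separate animals or pools is not stated, so p-values measure the spread between these libraries.

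In the cell, lncRNAs act mostly as RNA: some scaffold nuclear bodies, some silence neighbouring genes in cis, some bind proteins or microRNAs in the cytoplasm, and some are precursors whose introns or exons yield microRNAs or small nucleolar RNAs. In the ovary the growing oocyte stores a transcriptome of its own that includes many transcripts from retroviral and other repeat-driven starts, while cumulus cells switch their programme when the ovulatory signal arrives. The libraries selected poly(A) RNA, so transcripts without a tail, and mature microRNAs, were not measured.

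Libraries held 19458618 to 37491828 counts. All 18 oocyte markers and all 12 cumulus and granulosa markers were detected in every group. Of 4 theca markers, the hormone Insl3 was at 0 in every library of the 6 cultured groups. Cyp17a1 was also at 0 in every library of CTL 4 h and PCI 8 h, which left Thbd and Ptch1 in the sums there. The mean sum of the 4 was 51.2 CPM in START and 20.9 CPM in CTL 4 h. It was 77.8 CPM in CTL 8 h and 109 CPM in CTL 12 h. Of the 2 theca markers tested, 1 was higher than START at each of 4, 8 and 12 h, and 1 was lower at 4 h. Summed markers of theca, stroma, endothelium and leukocytes reached at most 136, 27.6, 73.1 and 24.5 CPM in any library. Summed red cell markers fell within 18.3 to 69.4 CPM in START and 0.747 to 0.927 CPM in CTL 12 h. The 1 of them tested was lower than START at 4, 8 and 12 h. Their part in the falls of lncRNAs was not tested. The summed oocyte markers ran from 4175 to 18113 CPM among the START libraries and from 4954 to 17611 CPM among the PCI 4 h libraries, a 4.34-fold and a 3.55-fold spread within a group; in CTL 12 h they ran from 2472 to 3614 CPM. The summed cumulus markers ran from 8455 to 19211 CPM in START and from 3208 to 4078 CPM in CTL 12 h. In such bulk samples fewer cells of a type and less RNA per cell cannot be told apart.

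The sequences that bear on the microRNA host genes described below are shown first. Mir100hg, Mir99ahg and C430049B03Rik are precursors that span microRNA hairpins, and their mature products share seeds (bases 2 to 8, in capitals), the stretch that pairs with targets. Sequences are RefSeq's on GRCm38.p6, 5′ to 3′. The first lies in Mir100hg at chr9:41581940-41581961 on the plus strand and, letter for letter, in Mir99ahg at chr16:77646279-77646300 on the plus strand; the second lies in C430049B03Rik at chrX:53053315-53053338 on the minus strand, and both carry the seed CCCUGAG.
miR-125b-5p: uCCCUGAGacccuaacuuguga
miR-351-5p: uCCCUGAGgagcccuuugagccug
The next pair also shares a seed, ACCCGUA; miR-100-5p lies in Mir100hg at chr9:41531437-41531458 and miR-99a-5p in Mir99ahg at chr16:77598940-77598961, both on the plus strand.
miR-100-5p: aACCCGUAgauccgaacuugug
miR-99a-5p: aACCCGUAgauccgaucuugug

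As a group, the 76 lncRNAs were a small part of the RNA. They held 0.153% to 0.355% of the counts of a library (median 0.193%), and 54.6% to 70.0% of all lncRNA counts. The mean share was 0.256% ± 0.101 (SD, n = 3) in START, 0.230% ± 0.0466 in CTL 4 h, 0.190% ± 0.0265 in CTL 8 h and 0.174% ± 0.0184 in CTL 12 h. The inhibitor groups had shares of 0.237% ± 0.0981 (4 h), 0.183% ± 0.0194 (8 h) and 0.200% ± 0.0431 (12 h). The single most counted gene, Gm1965, took 9.87% to 19.8% of the group's counts.

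The highest mean of the control course fell in START for 51 genes, in CTL 4 h for 7, in CTL 8 h for 2 and in CTL 12 h for 16. At least 10 CPM were reached by 64 genes in START, 56 in CTL 4 h, 38 in CTL 8 h and 34 in CTL 12 h, and by 58, 37 and 39 genes in PCI 4 h, 8 h and 12 h. In all 7 groups 25 genes reached it, and in 1 group only 13 did, 8 of them through START. Just inside the threshold stood Gm15496 at 10.1 CPM, Gm15507 at 10.3 CPM and 2010001K21Rik at 10.4 CPM, and just outside Gm12065 at 9.91 CPM, Crnde at 9.69 CPM and Gm36480 at 9.41 CPM; all 6 had these means in START. Most of the genes have no functional name: 55 carry a Gm, Rik or clone-type symbol.

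**Figure D1:**
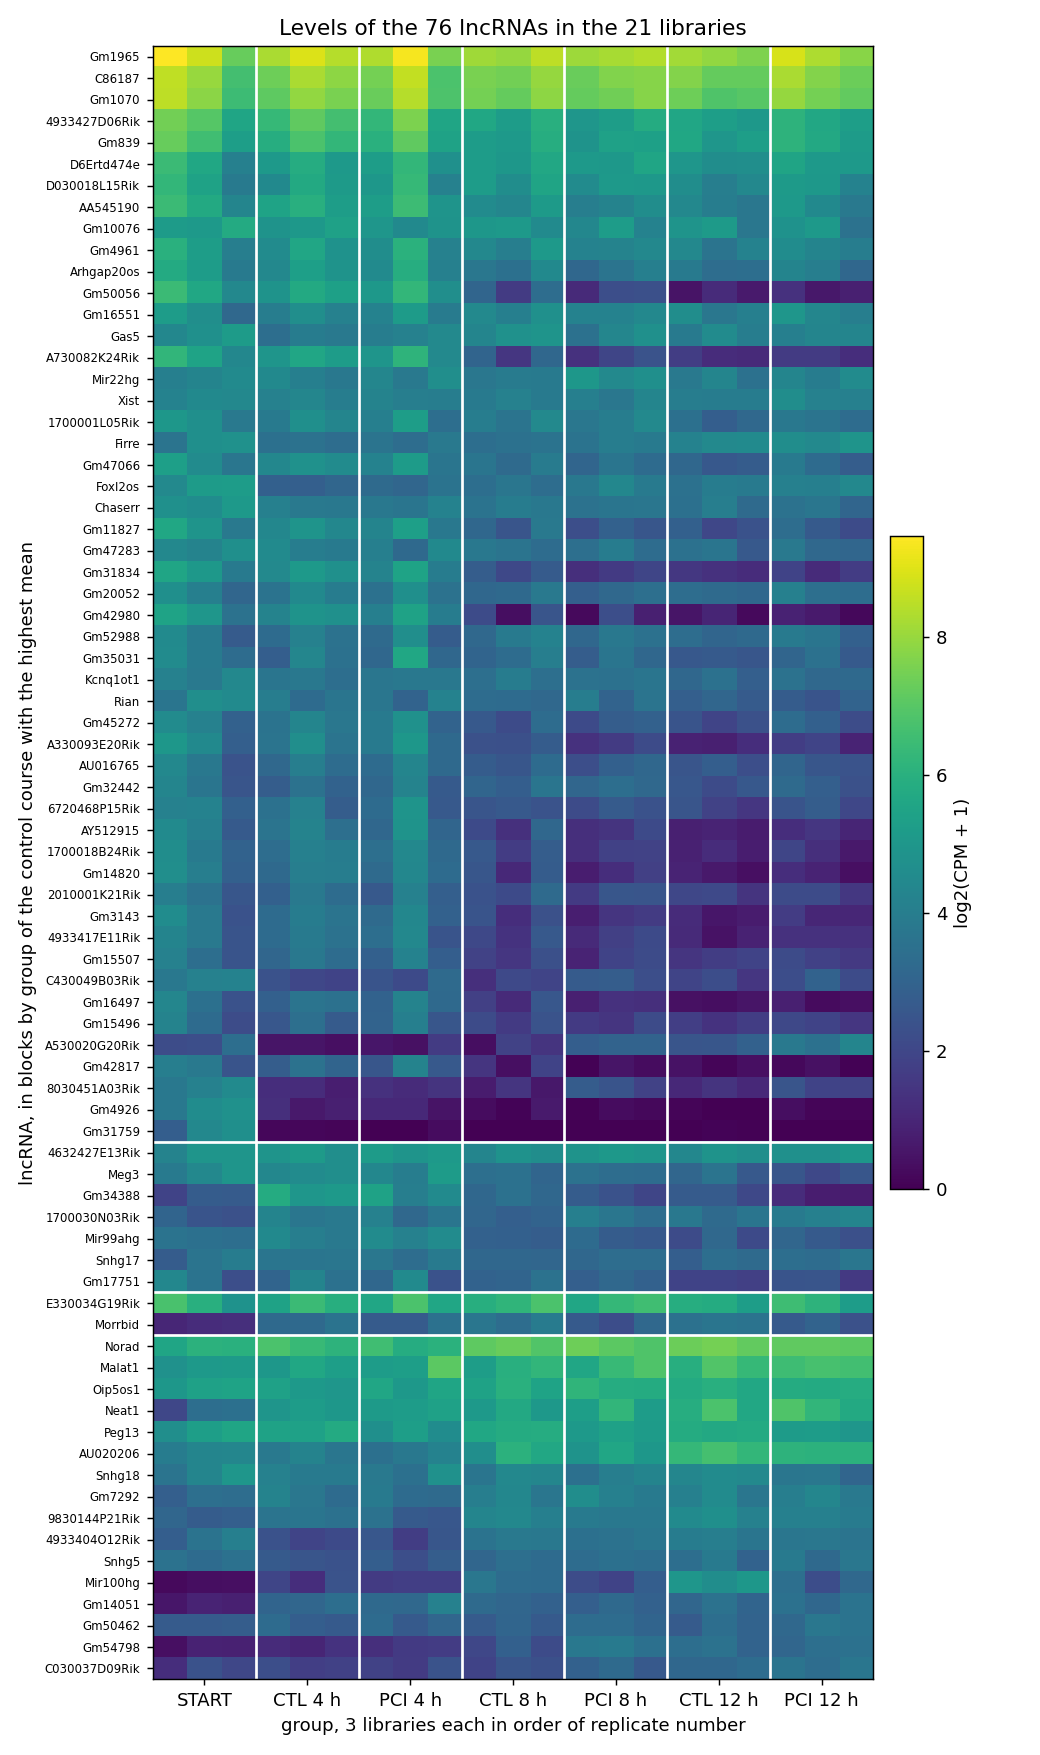
Colour gives log2(CPM + 1) of each of the 76 lncRNAs (rows, in blocks by the control group with their highest mean) in each of the 21 libraries (columns, 3 a group). In the block of 51 genes highest in START, many rows dim from the first to the third START library, and several rows are dark in all 8 h and 12 h libraries.

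The most abundant lncRNA was Gm1965 (ENSMUSG00000090254; chromosome 6, 89117976 to 89124370, plus strand, mm39), first both by counts and per length, with a mean over all libraries of 338 CPM and 138 CPM per kb of annotated exon. Its level was 704, 425 and 152 CPM in the START libraries, 306, 501 and 337 CPM in CTL 4 h, 279, 246 and 368 CPM in CTL 8 h, and 285, 242 and 196 CPM in CTL 12 h. The START libraries thus spanned all control values. C86187 followed with 380, 256 and 98.1 CPM in START and 210, 150 and 149 CPM in CTL 12 h, and Gm1070 with 368, 227 and 89.5 CPM in START and 163, 116 and 127 CPM in CTL 12 h. These 3 genes were among 17 lncRNAs that passed the test in none of the 8 comparisons below. C86187 was also second per length, at 88.3 CPM per kb, whereas Malat1, lower by counts, stood at 9.50 CPM per kb and Neat1 at 2.20 CPM per kb. These values divide by all annotated exon bases, 6983 for Malat1 and 20771 for Neat1. Which of their transcripts the poly(A) selection captured was not tested.

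Gm1965 has lncRNA neighbours. Together with 4933427D06Rik and Gm839 it lies between positions 88927665 and 89193219 of chromosome 6 (mm39), where the table places no protein-coding gene. In the START libraries 4933427D06Rik had 175, 124 and 46.5 CPM and Gm839 had 151, 93.4 and 38.4 CPM, the same order of libraries as Gm1965. In CTL 12 h 4933427D06Rik had 46.9, 38.6 and 31.6 CPM and Gm839 had 48.9, 30.2 and 38.7 CPM. Both were lower than in START at 12 h, by a log2 fold change of -1.43 ± 0.44 (SE; adjusted p = 0.0112) and -1.14 ± 0.42 (adjusted p = 0.0312; edgeR quasi-likelihood F test, Benjamini-Hochberg over 18192 genes, as for every adjusted p of a gene unless another tool is named). For Gm1965 the log2 fold change was -0.70 ± 0.42 (adjusted p = 0.175). Both calls depended on single libraries: without START replicate 1 the adjusted p was 0.0925 for 4933427D06Rik and 0.263 for Gm839. With the oocyte markers' mean as a covariate, an alternative added after seeing the data, both signs turned, to 1.43 and 1.68. START and CTL 12 h did not overlap in this covariate, so these values are extrapolations.

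Many of these genes followed the libraries' oocyte marker level within START. The order of the 3 START libraries was that of the oocyte marker sum (18113, 11748 and 4175 CPM) for 39 of the 76 lncRNAs, 51.3%, against 31.1% of all genes tested; it was also that of 18 of 18 oocyte markers. Among the PCI 4 h libraries, where the sum was 7517, 17611 and 4954 CPM, 34 lncRNAs (44.7%, against 28.5% of all genes) had the marker order, and 31 (40.8%, against 19.9%) had it in both groups. The summed level of the 76 lncRNAs was 3552, 2600 and 1538 CPM in START and 1963, 3493 and 1665 CPM in PCI 4 h. The named nuclear and snoRNA-linked genes Malat1, Neat1, Norad, Oip5os1, Gas5, Snhg17 and Snhg18 did not have this order in START. How far oocyte content contributed to each gene's value was not tested.

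Many of the lncRNAs differed between START and the CTL groups, in which culture, serum, growth factor and DMSO came together. Against START, 9 were higher and 11 lower in CTL 4 h, 10 higher and 30 lower in CTL 8 h, and 14 higher and 39 lower in CTL 12 h. That is 26.3% of the 76 at 4 h, beside 31.5% of all 18192 genes tested and 41.0% of protein-coding genes under the same level rule. At 8 h it is 52.6%, beside 41.3% of all genes and 5161 of the 10323 protein-coding genes. At 12 h it is 69.7%, beside 51.0% of all genes and 57.8% of protein-coding genes. The balance of directions was different with the oocyte markers' mean as a covariate. In that fit, an alternative added after seeing the data, 17 were higher and 26 lower at 8 h, and 26 higher and 17 lower at 12 h. The centred covariate ran from -0.04 to 1.99 in START, -0.33 to 0.69 in CTL 8 h and -2.13 to -1.63 in CTL 12 h. CTL 12 h overlapped neither. Its changes against START or CTL 8 h with this covariate, here and for single genes, are therefore extrapolations. Of the genes called, 11, 28 and 39 reached 10 CPM in only 1 of the groups compared, so the counts are given as a description. The median log2 fold change of the 76 was -0.09, -0.59 and -1.06 at the 3 times, against -0.05, -0.08 and -0.06 over all genes tested. The oocyte markers had medians of -0.20, -1.07 and -3.48, with 0, 8 and 14 of 18 called lower. At 8 h the count was 25 without START replicate 1. From CTL 4 h to CTL 8 h, 6 lncRNAs were higher and 18 lower (31.6%). Of all genes 23.2% were called, and of protein-coding genes under the same level rule 30.5%. The lncRNA count was 13 without CTL 4 h replicate 2 and 10 without CTL 8 h replicate 2. From CTL 8 h to CTL 12 h, 5 lncRNAs were higher and 9 lower (18.4%). Of all genes 8.80% were called (4.63% higher and 4.17% lower), and of such protein-coding genes 11.7%. That lncRNA count was 0 to 4 without any one of CTL 12 h replicates 1, 2 and 3 and CTL 8 h replicates 1 and 3.

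**Figure D2:**
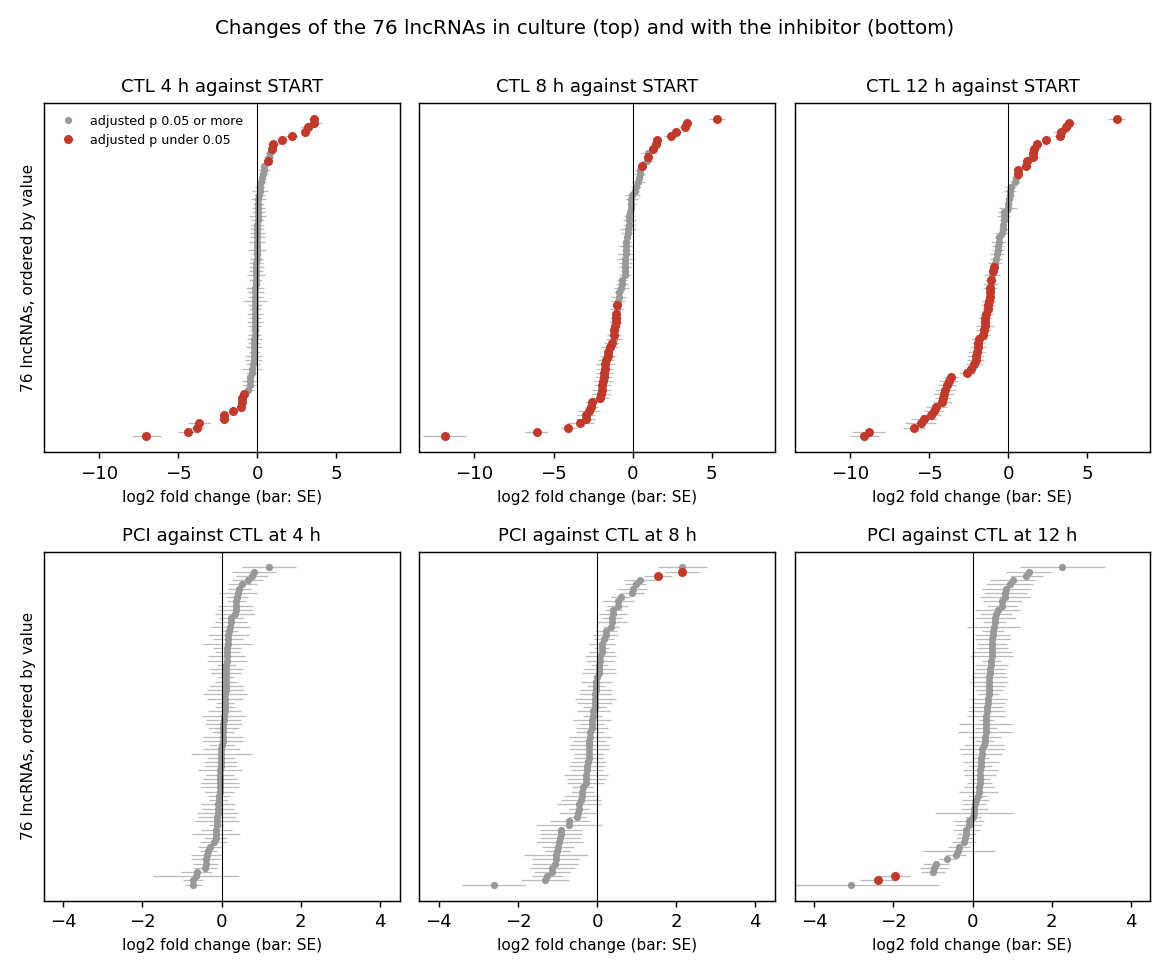
Each point is 1 of the 76 lncRNAs, ordered by its log2 fold change (x axis, bar: SE), in 3 comparisons of control culture with START (top) and 3 of the inhibitor with its control (bottom); red marks an adjusted p under 0.05. Red points number 20, 40 and 53 in the top panels and 0, 2 and 2 in the bottom panels, and the 2 rows differ in their x range.

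Seen gene by gene, 7 lncRNAs were higher than START at 4, 8 and 12 h: Mir100hg, Gm14051, Morrbid, Neat1, Norad, Gm54798 and 9830144P21Rik. The last, like AU020206, Chaserr, Chd2, Foxl2 and Slc20a1 below, was named after its values were seen. Of all genes tested, 16.2%, 20.7% and 25.1% were higher at 4, 8 and 12 h. The share of all genes higher at every one of these times was not determined.

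Mir100hg (ENSMUSG00000074415; chromosome 9, 41238373 to 41628290, plus strand, mm39), the host of miR-100, let-7a-2 and miR-125b-1, had the largest rise. It stood at 0.178, 0.285 and 0.310 CPM in START, 2.96, 1.34 and 4.31 CPM in CTL 4 h, 12.6, 9.22 and 8.91 CPM in CTL 8 h, and 30.6, 23.7 and 30.9 CPM in CTL 12 h. The libraries of the 4 groups did not overlap. Log2 fold changes against START were 3.58 ± 0.49 at 4 h (adjusted p = 1.06e-05), 5.33 ± 0.50 at 8 h (adjusted p = 1.11e-07) and 6.87 ± 0.52 at 12 h (adjusted p = 6.0e-09). It reached 10 CPM only in CTL 8 h and CTL 12 h.

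Mir99ahg and C430049B03Rik, whose products share seeds with those of Mir100hg as printed above, did not rise in this way. Mir99ahg stood at 11.0, 10.3 and 9.78 CPM in START, 21.4, 15.5 and 13.1 CPM in CTL 4 h, and 3.50, 8.19 and 3.37 CPM in CTL 12 h. It was lower than START at 12 h, at -0.94 ± 0.32 (adjusted p = 0.0209), and lower at 8 h than at 4 h, at -1.49 ± 0.33 (adjusted p = 0.00342). The 12 h call was lost without START replicate 1 (adjusted p = 0.0577), CTL 12 h replicate 1 (adjusted p = 0.109) or CTL 12 h replicate 3 (adjusted p = 0.132). C430049B03Rik, from whose span miR-322, miR-503 and miR-351 come, fell from 13.0, 16.7 and 17.2 CPM in START to 4.22, 3.01 and 2.72 CPM in CTL 4 h, a log2 fold change of -2.11 ± 0.39 (adjusted p = 0.000316). It remained low, at 2.83, 3.76 and 1.81 CPM in CTL 12 h (-2.37 ± 0.40, adjusted p = 7.27e-05), and reached 10 CPM only in START. Mir22hg, the host of miR-22, kept 10.6 to 22.0 CPM throughout the control course and passed no test. Of 12 genes tested on a list of 22 microRNA hosts, 3 were higher and 0 lower at 4 h, and 3 were higher and 4 lower at 12 h. C430049B03Rik, lower at both times, is not on that list and is not in these counts. The shares over all genes tested were 16.2% higher and 15.3% lower at 4 h, and 25.1% higher and 26.0% lower at 12 h. Dnm3os, which is not among the 76, was higher than START at 4, 8 and 12 h, as was Mir100hg. With the inhibitor Dnm3os was lower at 8 h, and Mir100hg and Dnm3os at 12 h.

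**Figure D3:**
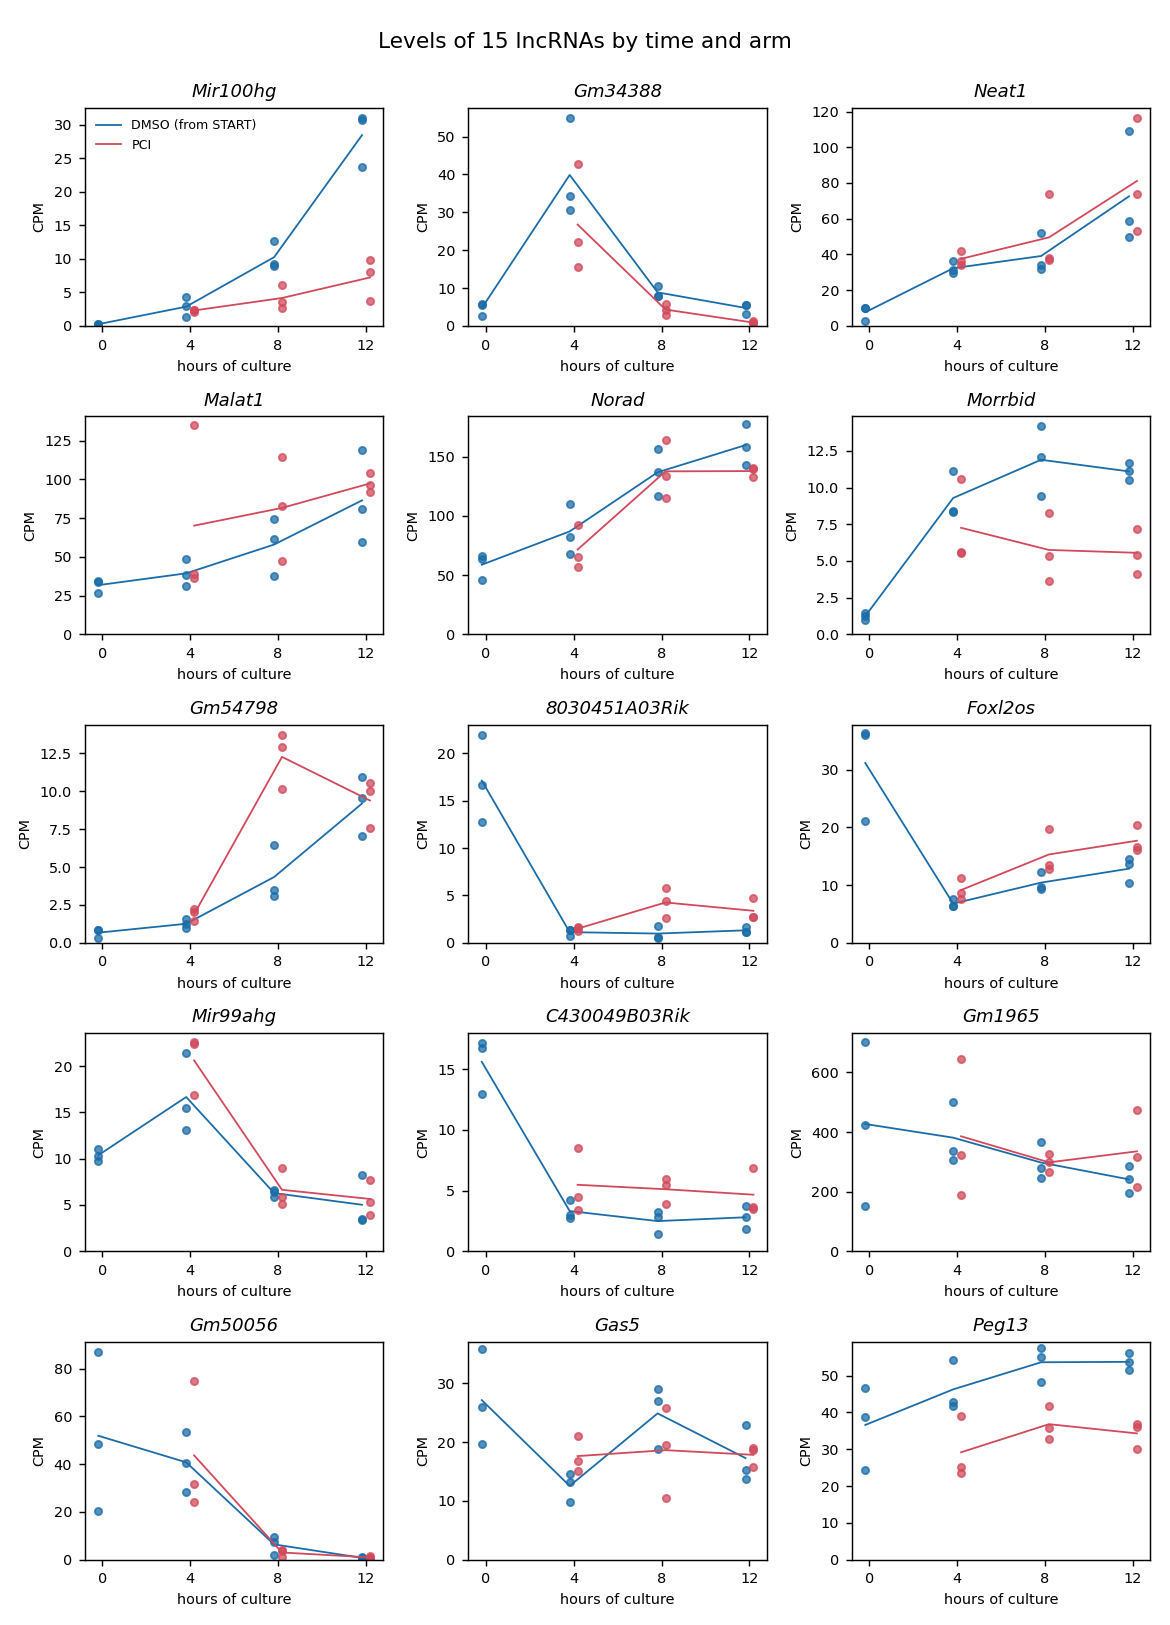
Each panel plots the CPM of 1 lncRNA against hours of culture; points are libraries, lines join group means, blue is START and DMSO and red is the inhibitor. Mir100hg climbs in the DMSO arm to 23.7 to 30.9 CPM at 12 h while the inhibitor libraries stay at 3.72 to 9.87 CPM, and Gm34388 peaks at 4 h.

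Among lncRNAs of nuclear bodies and other widely expressed ones, Neat1, the scaffold of paraspeckles, rose most. It stood at 3.03, 9.81 and 10.1 CPM in START, 29.4, 36.2 and 31.3 CPM in CTL 4 h and 58.4, 109 and 50.002 CPM in CTL 12 h, so that all cultured libraries lay above START. Its log2 fold changes were 2.19 ± 0.40 at 4 h (adjusted p = 0.000276) and 3.34 ± 0.42 at 12 h (adjusted p = 3.02e-06). Malat1, a component of nuclear speckles that lies 22031 bases from Neat1 on chromosome 19, had 26.6, 33.9 and 34.7 CPM in START and 59.8, 119 and 80.5 CPM in CTL 12 h. Its rise passed at 12 h alone, at 1.55 ± 0.41 (adjusted p = 0.0038), with no overlap between the groups; with the oocyte marker covariate the adjusted p was 0.514.

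Norad, which binds Pumilio proteins in the cytoplasm, rose from 45.9, 66.5 and 63.9 CPM in START to 137, 157 and 117 CPM in CTL 8 h and 159, 177 and 143 CPM in CTL 12 h. The log2 fold changes were 1.27 ± 0.22 (adjusted p = 0.000144) and 1.55 ± 0.22 (adjusted p = 1.28e-05). With the oocyte marker covariate the 12 h value was 0.68 (adjusted p = 0.101). The smaller 4 h rise of 0.69 ± 0.22 (adjusted p = 0.0191) was lost without START replicate 1 (adjusted p = 0.0860) or CTL 4 h replicate 1 (adjusted p = 0.0650). Oip5os1, known as Cyrano and best known for promoting decay of miR-7, had 31.0, 41.6 and 43.5 CPM in START and 54.0, 62.4 and 49.96 CPM in CTL 12 h. Its 12 h difference of 0.62 ± 0.20 (adjusted p = 0.0158) was lost without START replicate 1 (adjusted p = 0.0674) or CTL 12 h replicate 2 (adjusted p = 0.0560), and the oocyte marker covariate turned it to -0.38. Firre, an X-linked nuclear RNA that helps to organise chromatin, was lower than START at 4 h (-0.94 ± 0.25, adjusted p = 0.00653) and 8 h (-0.97 ± 0.25, adjusted p = 0.00461), with 17.2, 20.8 and 22.2 CPM in CTL 12 h and 11.6, 24.9 and 26.3 CPM in START, which overlap. The 4 h call of Firre was lost without START replicate 3 (adjusted p = 0.0667) or CTL 4 h replicate 3 (adjusted p = 0.0658). Of 9 genes tested on the list of 10 such lncRNAs, 2 were higher and 1 lower at 4 h, with a median of 0.18. At 12 h 5 were higher and 2 lower, with a median of 0.72. Of all genes tested, 16.2% were higher and 15.3% lower at 4 h, and 25.1% higher and 26.0% lower at 12 h.

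Further early rises came from genes beside well-known partners. Morrbid, which in mouse myeloid cells represses its neighbour Bcl2l11, the gene of the pro-apoptotic protein Bim, lies 15772 bases from it on chromosome 2. It rose from 0.997, 1.28 and 1.45 CPM in START to 8.34, 8.40 and 11.1 CPM in CTL 4 h (3.02 ± 0.34, adjusted p = 9.18e-07) and stood at 10.5, 11.7 and 11.1 CPM in CTL 12 h (3.26 ± 0.34, adjusted p = 2.92e-07). Gm14051 overlaps Slc23a2, the ascorbate transporter gene, on the opposite strand, with starts 575 bases apart. It rose from 0.499, 0.927 and 0.758 CPM to 7.28, 7.78 and 9.57 CPM in CTL 4 h, a log2 fold change of 3.61 ± 0.33 (adjusted p = 8.17e-08), while Slc23a2 itself rose by 2.98 ± 0.24 from 320 ± 136 to 2294 ± 237 CPM (SD, n = 3). The kit keeps strand, but whether the counting used it is not given, so reads of such overlapping genes could not be told apart with certainty. Gm54798 rose later, from 0.321, 0.856 and 0.827 CPM in START to 3.07, 6.49 and 3.47 CPM in CTL 8 h and 9.59, 11.0 and 7.03 CPM in CTL 12 h (3.88 ± 0.40, adjusted p = 2.53e-07); it overlaps Macrod1 on the opposite strand, and Macrod1 was lower at 12 h, at -1.84 ± 0.39. Its 4 h value of 1.03 ± 0.39 (adjusted p = 0.0493) missed the threshold without START replicate 1 (adjusted p = 0.192), START replicate 2 (adjusted p = 0.0526) or CTL 4 h replicate 3 (adjusted p = 0.0960). 9830144P21Rik, which overlaps the phosphate transporter gene Slc20a1, rose from 7.62, 5.67 and 6.23 CPM to 22.2, 24.9 and 16.6 CPM in CTL 12 h (1.81 ± 0.26, adjusted p = 1.24e-05), while Slc20a1 rose by 1.96 ± 0.22.

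Of the 7 genes with their highest control mean in CTL 4 h, Gm34388 and 1700030N03Rik were higher than START at 4 h and lower at 8 h than at 4 h. Gm34388 (ENSMUSG00000114474; chromosome 13, 98002349 to 98013170, minus strand, mm39) stood at 2.74, 5.74 and 5.65 CPM in START and 54.8, 30.6 and 34.2 CPM in CTL 4 h, a log2 fold change of 3.21 ± 0.42 (adjusted p = 7.06e-06). In CTL 8 h it had 7.95, 10.6 and 8.02 CPM, lower than at 4 h by -2.25 ± 0.40 (adjusted p = 0.000836), and in CTL 12 h 5.56, 5.57 and 3.12 CPM, overlapping START. 1700030N03Rik, named after its values were seen, had 7.19, 4.49 and 4.13 CPM in START and 18.0, 12.1 and 13.3 CPM in CTL 4 h (1.59 ± 0.30, adjusted p = 0.000355). In CTL 8 h it had 7.79, 6.24 and 7.10 CPM (-1.12 ± 0.30 against 4 h, adjusted p = 0.0108). Its fall missed the threshold without CTL 4 h replicate 1 or CTL 8 h replicate 2, with an adjusted p of 0.00138 to 0.0613 over 14 alternatives. AU020206 rose late instead, with 13.3, 18.0 and 12.2 CPM in CTL 4 h and 77.1, 102 and 76.4 CPM in CTL 12 h (2.38 ± 0.29 against START, adjusted p = 1.96e-06).

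The falls came in an early and a late set. At 4, 8 and 12 h, 6 lncRNAs were lower than START: Gm31759, Gm4926, 8030451A03Rik, C430049B03Rik, Foxl2os and Chaserr. Of all genes tested, 15.3%, 20.6% and 26.0% were lower at these times. The share of all genes lower at every one of them was not determined. Gm31759 stood at 6.16, 20.5 and 25.2 CPM in START, with 1480 counts over the 3 libraries, against 11 counts over CTL 4 h, 0 over CTL 8 h and 3 over CTL 12 h. Its level was at least 457-fold lower in CTL 8 h, taking 3 counts over the group as the floor, and 543-fold lower in CTL 12 h (95% interval for counting error 186 to 2637). Gm4926 fell from 13.0, 23.3 and 26.8 CPM to 1.45, 0.556 and 0.781 CPM in CTL 4 h (-4.36 ± 0.65, adjusted p = 3.0e-05), and 3 counts were left over CTL 12 h beside 1795 over START, a ratio of 659 (95% interval 225 to 3198). Both genes were highest in START replicate 3, the library with the lowest oocyte marker sum, and both reached 10 CPM only in START.

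8030451A03Rik overlaps Tnc, the gene of the matrix protein tenascin-C, on the opposite strand, and the pair moved in opposite directions. The lncRNA fell from 12.7, 16.7 and 21.9 CPM in START to 1.35, 1.31 and 0.713 CPM in CTL 4 h (-3.81 ± 0.46, adjusted p = 2.18e-06) and had 1.11, 1.71 and 1.14 CPM in CTL 12 h. It reached 10 CPM only in START, so the direction of its change was set by the rule. Tnc rose from 47.8 ± 3.97 to 314 ± 27.7 CPM at 4 h and 833 ± 86.0 CPM at 12 h (SD, n = 3), a log2 fold change of 4.23 ± 0.23 (adjusted p = 5.97e-11). Foxl2os, antisense to Foxl2, a transcription factor that maintains granulosa identity, fell from 21.2, 36.0 and 36.3 CPM to 6.38, 6.34 and 7.64 CPM in CTL 4 h (-2.08 ± 0.25, adjusted p = 2.53e-06), and Foxl2, whose start lies 11 bases away, fell at 4 h as well (-1.29 ± 0.35, adjusted p = 0.00685). At 12 h Foxl2os was still lower, at 10.4, 14.5 and 13.6 CPM (-1.17 ± 0.24, adjusted p = 0.000575), and Foxl2 differed by -0.42 ± 0.34 (adjusted p = 0.319). Chaserr, which in mouse restrains the chromatin remodeller gene Chd2 beside it, went from 26.0, 23.2 and 33.4 CPM to 10.3, 15.4 and 8.59 CPM in CTL 12 h (-1.17 ± 0.24, adjusted p = 0.000521). Chd2 differed from START by 0.20 ± 0.15 at 4 h (adjusted p = 0.376) and -0.38 ± 0.15 at 8 h (adjusted p = 0.0570). At 12 h Chd2 differed by -0.02 ± 0.15 (adjusted p = 0.936). A530020G20Rik dipped at 4 h, from 3.60, 3.89 and 9.58 CPM to 0.451, 0.458 and 0.305 CPM (-3.70 ± 0.69, adjusted p = 0.000297), and had 4.61, 4.80 and 6.57 CPM in CTL 12 h; Slc44a3, which it overlaps on the opposite strand, fell by 2.98 ± 0.34 at 4 h. Over the 24 pairs of a lncRNA and a protein-coding gene that overlap or start within 5 kb and could be tested, both partners were called at 4 h in 6, at 8 h in 7 and at 12 h in 12. The directions matched in 4, 3 and 8 of these. At the 3 times 26.3%, 52.6% and 69.7% of the 76 lncRNAs were called. Of protein-coding genes under the same level rule, 41%, 50% and 57.8% were called. Whether neighbours moved together more often than unrelated genes was not tested.

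In the late set, 33 lncRNAs were lower than START first at 8 h or 12 h. Calls of lower genes also grew with time over all genes tested, from 15.3% at 4 h to 20.6% at 8 h and 26.0% at 12 h. The share of all genes with this late pattern was not determined. Gm50056 stood at 86.9, 48.3 and 20.4 CPM in START and 28.3, 53.3 and 40.6 CPM in CTL 4 h, then at 7.59, 2.13 and 9.45 CPM in CTL 8 h and 0.430, 1.23 and 0.590 CPM in CTL 12 h. The log2 fold changes against START were -2.98 ± 0.60 at 8 h (adjusted p = 0.000643) and -5.96 ± 0.72 at 12 h (adjusted p = 1.81e-06). Of its neighbours, Gtf2a1l, the gene of a germ-cell transcription factor subunit whose start lies 3895 bases away, was lower at 12 h (-2.003 ± 0.561, adjusted p = 0.00595), and Ston1, which it overlaps, differed by -0.23 ± 0.44 (adjusted p = 0.688). Gm42980 fell from 44.2, 30.6 and 10.8 CPM to 0.461, 0.987 and 0.168 CPM in CTL 12 h (-5.54 ± 0.97, adjusted p = 0.000117), and Gm42817 from 15.4, 13.2 and 4.55 CPM to 0.369, 0.107 and 0.295 CPM (-5.30 ± 0.82, adjusted p = 3.28e-05). With the oocyte marker covariate the adjusted p at 12 h was 0.257 for Gm42980 and 0.0774 for Gm42817. Gm42817 reached 10 CPM only in START, and Gm50056 and Gm42980 only in START, CTL 4 h and PCI 4 h. The direction of their 8 h and 12 h falls was therefore set by the rule. All these START values ran in the order of the oocyte marker sum, and 14 of the 18 oocyte markers were lower at 12 h; their part in the late falls was not tested gene by gene beyond that covariate.

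Among imprinted lncRNAs, Meg3, Rian and Kcnq1ot1 were lower than START at 12 h and Peg13 was higher. Meg3 and Rian are maternally expressed neighbours on chromosome 12, from 109506879 to 109628150 (mm39). Meg3 stood at 13.6, 20.5 and 29.8 CPM in START, 19.8, 22.6 and 24.6 CPM in CTL 4 h and 7.68, 11.5 and 5.22 CPM in CTL 12 h (-1.30 ± 0.33, adjusted p = 0.00331), and it was lower at 8 h than at 4 h (-1.33 ± 0.33, adjusted p = 0.00816). Rian went from 11.6, 24.5 and 22.0 CPM to 6.24, 7.60 and 5.64 CPM in CTL 12 h (-1.47 ± 0.35, adjusted p = 0.00188). Kcnq1ot1, the paternally expressed antisense RNA that silences its domain in cis, was lower at 12 h by -0.91 ± 0.23 (adjusted p = 0.00308). Peg13, a paternally expressed RNA, went the other way, from 24.3, 38.9 and 46.6 CPM to 56.0, 51.6 and 53.6 CPM in CTL 12 h (0.66 ± 0.22, adjusted p = 0.017), a difference that missed the threshold when START replicate 1 was left out (adjusted p = 0.0868; 0.00103 to 0.223 over its 14 alternatives). Of 7 genes tested on the list of 11 imprinted lncRNAs, 0 passed at 4 h, when 31.5% of all genes tested did. At 8 h 1 was higher and 3 lower, beside 20.7% and 20.6% of all genes. At 12 h 1 was higher and 4 lower, beside 25.1% and 26.0% of all genes. The list's 12 h median was -1.18. Xist, which coats the inactive X chromosome, kept 13.4 to 21.6 CPM over the control libraries and differed from START by -0.11, -0.38 and -0.30 at the 3 times, none past the test.

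Of the 4 snoRNA host genes among the 76, Gas5 and Snhg5 fell at 4 h and rose again by 8 h. Gas5, an unstable RNA whose introns carry box C/D snoRNAs, stood at 19.6, 26.0 and 35.8 CPM in START, 9.73, 14.6 and 13.3 CPM in CTL 4 h and 18.7, 26.9 and 29.0 CPM in CTL 8 h. It was lower at 4 h than in START (-1.01 ± 0.29, adjusted p = 0.0115) and higher at 8 h than at 4 h (0.92 ± 0.29, adjusted p = 0.0298). Snhg5 followed the same course, from 10.8, 8.84 and 10.6 CPM to 5.41, 4.71 and 4.28 CPM (-0.95 ± 0.26, adjusted p = 0.00801) and back to 7.67, 9.85 and 8.99 CPM (0.80 ± 0.26, adjusted p = 0.0327). Both steps depended on single libraries. The fall of Gas5 was lost without START replicate 3 (adjusted p = 0.114) or CTL 4 h replicate 1 (adjusted p = 0.103), that of Snhg5 without CTL 4 h replicate 3 (adjusted p = 0.0936). For the return from 4 h to 8 h the adjusted p of Gas5 was 0.116, 0.0634, 0.0927 and 0.0832 without CTL 4 h replicates 1 or 3 or CTL 8 h replicates 2 or 3. For Snhg5 it was 0.0549, 0.0974, 0.144, 0.118 and 0.0616 without CTL 4 h replicates 1, 2 or 3 or CTL 8 h replicates 2 or 3. Snhg17 and Snhg18 passed no test. Of 19 genes tested on the list of 21 hosts, 2 were lower and 0 higher at 4 h, with a median of -0.20. Beside them, 15.3% of all genes tested were lower and 16.2% higher.

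Host genes of this kind are known for starts that open with a run of pyrimidines, which couples translation and RNA stability to growth signals. Below are RefSeq's windows around the annotated starts of the 4 host genes (GRCm38.p6, 5′ to 3′, with the longest run of c and t overlapping 10 bases either side of the start in capitals); of the starts listed for Gas5 and Snhg17, the one with the longer run is shown. They lie at chr1:161035141-161035190 (plus strand), chr9:88522873-88522922 (minus), chr2:158361485-158361534 (minus) and chr15:32244638-32244687 (minus).
Gas5: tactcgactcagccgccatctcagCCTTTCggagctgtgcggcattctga
Snhg5: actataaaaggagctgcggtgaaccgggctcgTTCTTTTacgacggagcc
Snhg17: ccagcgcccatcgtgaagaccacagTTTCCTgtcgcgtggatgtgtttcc
Snhg18: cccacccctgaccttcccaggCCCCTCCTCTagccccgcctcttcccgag
The runs were 6, 7, 6 and 10 bases long. Counted from the annotated start as 0, they began at -1, 7, 0 and -4, in the order printed. The run of Snhg5 thus lay inside the transcript, and those of Gas5 and Snhg18 began before the annotated start. Whether the runs bear on the changes was not tested.

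Promoter windows (250 bases before to 50 after the start, RefSeq, GRCm38.p6) were found for 46 of the 76 genes, 60 windows in all. The AP-1 motif TGACTCA, on either strand, was present in 7 of these windows (11.7%), against 5.20% of all 32851 windows; the motif CACGTG in 7 (11.7%, against 7.15%) and TGACGTCA in 3 (5.00%, against 1.79%). The 7 genes with TGACTCA include early rises (Morrbid, Gm14051) and early falls (8030451A03Rik, Gm31759), whose motif with its surroundings is shown with the motif in capitals. They lie at chr2:128429326-128429372 (minus strand), chr2:132152852-132152898 (plus), chr4:63984736-63984780 (plus) and chr17:74950258-74950304 (minus); in Morrbid the motif is on the opposite strand and reads TGAGTCA.
Morrbid: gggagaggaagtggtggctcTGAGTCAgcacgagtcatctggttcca
Gm14051: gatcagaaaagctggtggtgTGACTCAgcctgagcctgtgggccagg
8030451A03Rik: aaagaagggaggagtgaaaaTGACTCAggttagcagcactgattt
Gm31759: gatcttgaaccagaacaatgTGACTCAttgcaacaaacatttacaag
A match of letters is a description, and the motif thus stood in genes that moved in both directions.

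Few of the lncRNAs passed the test with the inhibitor. At 4 h 0 of 76 were called by edgeR, 2 had an unadjusted p under 0.05 and DESeq2 called 0, beside 0.132% of all genes tested (0.0110% higher, 0.121% lower). At 8 h 2 were called, both higher (2.63%, beside 3.67% of all genes, 1.95% higher and 1.72% lower, and 5.27% of protein-coding genes under the same level rule). At 12 h 2 were called, both lower (2.63%, beside 1.98% of all genes, 1.40% lower, and 2.88% of such protein-coding genes); 15 and 9 had an unadjusted p under 0.05. With the replicate number as a block, an alternative fitted to all 21 libraries, 5 were called at 8 h, with A530020G20Rik, Mir100hg and Morrbid added. The change of the inhibitor's effect with time was called for 0 lncRNAs by edgeR and by DESeq2, with 6 at an unadjusted p under 0.05, beside 0.0605% of all genes called. The median log2 fold change of the 76 was 0.04, -0.13 and 0.34 at 4, 8 and 12 h, beside 0.04, -0.02 and 0.03 over all genes.

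Mir100hg was lower with the inhibitor at 12 h. Against 30.6, 23.7 and 30.9 CPM in CTL 12 h it had 9.87, 3.72 and 8.07 CPM in PCI 12 h, with no overlap, a log2 fold change of -1.97 ± 0.40 (adjusted p = 0.0112). At 8 h it had 3.63, 2.71 and 6.15 CPM with the inhibitor and 12.6, 9.22 and 8.91 CPM without, also with no overlap; the log2 fold change of -1.26 ± 0.39 missed the threshold (adjusted p = 0.0927) and passed with the replicate block (-1.34 ± 0.33, adjusted p = 0.0302; 0.0284 to 0.348 over its 14 alternatives). At 4 h the values overlapped (2.12, 2.38 and 2.41 against 2.96, 1.34 and 4.31 CPM). The 12 h call held in all 14 alternatives, with adjusted p from 7.02e-05 to 0.0483. Mir100hg reached 10 CPM only in CTL 8 h and CTL 12 h, the higher groups of the 8 h and 12 h comparisons. The direction of both differences was therefore set by the rule.

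Gm34388 was the other gene lower at 12 h. It had 1.30, 0.672 and 0.668 CPM with the inhibitor against 5.56, 5.57 and 3.12 CPM without, a log2 fold change of -2.40 ± 0.44 (adjusted p = 0.00604), and this call too held in all 14 alternatives (4.5e-06 to 0.0456). Both 12 h groups lie under 10 CPM, so the rule did not set this difference. At its 4 h peak the inhibitor libraries had 42.7, 15.5 and 22.1 CPM against 54.8, 30.6 and 34.2 CPM, with overlap (-0.63 ± 0.39), and at 8 h 5.77, 4.22 and 2.98 CPM against 7.95, 10.6 and 8.02 CPM, without overlap (-0.98 ± 0.40, adjusted p = 0.238).

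Both genes higher at 8 h rested on single libraries. 8030451A03Rik, low in control culture, had 5.74, 4.43 and 2.61 CPM with the inhibitor against 0.646, 1.74 and 0.540 CPM (2.15 ± 0.44, adjusted p = 0.00747), which missed the threshold with replicate 1 of CTL 8 h left out (adjusted p = 0.0633) and likewise with replicate 1 of PCI 8 h (adjusted p = 0.0525; 2.78e-05 to 0.0633 over its alternatives). At 12 h it had 4.70, 2.76 and 2.67 CPM against 1.11, 1.71 and 1.14 CPM, without overlap but not past the threshold (1.36 ± 0.43, adjusted p = 0.131; 0.0089 to 0.473 over its alternatives, 2 of which passed). Its partner Tnc was lower with the inhibitor at 12 h, at 425 ± 146 against 833 ± 86.0 CPM (-0.95 ± 0.20, adjusted p = 0.0162), and at 8 h differed by -0.55 ± 0.20 (adjusted p = 0.168). Gm54798 had 13.0, 13.7 and 10.2 CPM with the inhibitor at 8 h against 3.07, 6.49 and 3.47 CPM (1.53 ± 0.35, adjusted p = 0.0158), and about equal values at 12 h (7.61, 10.0 and 10.5 against 9.59, 11.0 and 7.03 CPM). With a library left out it missed the threshold for CTL 8 h replicates 1 and 3 (adjusted p = 0.112 and 0.0838) and PCI 8 h replicates 1 and 2 (adjusted p = 0.0698 and 0.0630), and it reached 10 CPM in PCI 8 h only.

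Morrbid and A530020G20Rik differed without overlap at 8 h and 12 h but did not pass the test at either time. Morrbid had 5.34, 3.67 and 8.24 CPM with the inhibitor at 8 h against 12.1, 9.43 and 14.2 CPM (-1.002 ± 0.31, adjusted p = 0.0856; 0.0475 with the replicate block, 0.0179 to 0.327 over its alternatives), and 5.41, 7.15 and 4.11 CPM at 12 h against 10.5, 11.7 and 11.1 CPM (-0.99 ± 0.31, adjusted p = 0.126; 0.0302 to 0.416), with no overlap at either time. A530020G20Rik had 6.05, 7.05 and 7.03 CPM at 8 h against 0.283, 2.62 and 1.70 CPM (2.16 ± 0.62, adjusted p = 0.0614; 0.0298 with the block, 0.00675 to 0.227 over its alternatives) and 13.3, 10.6 and 18.6 CPM at 12 h against 4.61, 4.80 and 6.57 CPM (1.43 ± 0.59, adjusted p = 0.344; 0.0174 to 0.702). It reached 10 CPM in PCI 12 h only, the higher group of that comparison. Morrbid reached 10 CPM only in CTL 8 h and CTL 12 h, the higher groups of its 2 comparisons. Mir22hg had 30.9, 21.1 and 25.3 CPM at 8 h against 12.4, 14.5 and 13.7 CPM (0.97 ± 0.27, adjusted p = 0.0536; 0.0112 to 0.278).

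At 12 h most of the lncRNAs lay slightly higher with the inhibitor, none of them called: 60 of the 76 had a positive log2 fold change, with a median of 0.34 beside 0.03 over all genes. The oocyte markers had a median of 0.57, from 0.22 to 0.99, with 0 of 18 called. Their summed level was 5270, 4101 and 3082 CPM in PCI 12 h against 3614, 2472 and 2850 CPM in CTL 12 h, and their part in the lncRNA values was not tested. Gm1965 had 473, 316 and 217 CPM against 285, 242 and 196 CPM, overlapping, with a difference of 0.48 ± 0.42 (adjusted p = 0.834).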

How the data were processed

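The authors deposited 1 table of raw read counts per gene (56980 genes, 21 libraries), with positions on mm39 and biotypes, from libraries of a stranded poly(A) kit, per the labels' protocols. Reads were processed with cutadapt, STAR and HTSeq on mm39, per the submitters' processing notes; no source used here gives their versions, the annotation release or the strand option. No count row without a gene was used. CPM were computed on the sum over all rows. edgeR 4.0.16 (limma 3.58.1, R 4.3.3) kept 18192 genes by filterByExpr (99.9% or more of every library's counts), with TMM factors of 0.931 to 1.09, and fitted a mean per group to all 21 libraries (14 residual degrees of freedom). Each comparison used the two-sided robust quasi-likelihood F test with Benjamini-Hochberg adjustment over the 18192 genes, called at an adjusted p under 0.05. The SE is the log2 fold change over the root of F. The biological coefficient of variation was 29.5%, and intervals cover counting error only. In counts simulated for PCI against CTL at 8 h (17847 genes), the fit called 42% of 2-fold and 85% of 4-fold changes, with 5.93% of 135 calls false. Replicate libraries were distinct, with a chi-square of 25.4 to 305 per degree of freedom between their counts. Deviations of same-numbered PCI and CTL libraries, numbered in the labels, correlated at 0.32, 0.52 and 0.14 at 4 h. At 8 h they correlated at 0.17, 0.11 and 0.27, and at 12 h at 0.23, 0.04 and 0.17. Some libraries of unlike number correlated more than a matched pair of their time. CTL replicate 1 with PCI replicate 3 gave 0.24 at 4 h, and CTL replicate 2 with PCI replicate 1 gave 0.13 at 8 h. These values do not settle whether libraries were paired, so the block over all 21 libraries is an alternative only. Exon lengths came from GENCODE M21 (74 of 76 genes matched) and sequences from RefSeq on GRCm38.p6, matched by symbol, with no conversion of coordinates. Genes were named by rule: the 8 of highest mean CPM, members of the gene lists, the 5 largest called rises and falls per control time and the 6 per inhibitor time, the 3 of smallest p called for the change with time (none was), up to 6 neighbouring pairs, and the 3 nearest the threshold on either side; exceptions are stated. The members and lists were chosen with earlier results of these data known. Alternatives were other scalings, filters, DESeq2 1.42.0, the block, fewer groups, each replicate left out, other CPM thresholds and an oocyte marker covariate.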

Additional observations from a re-analysis of the deposited data

How the results depend on the processing

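Counts of lncRNAs called changed with the membership rule and with other settings. At 5 CPM 141 genes were members, at 20 CPM 41, and by the mean over all libraries 46. Calls in CTL 4 h, 8 h and 12 h against START were then 36, 79 and 98 at 5 CPM, 10, 19 and 26 at 20 CPM, and 9, 19 and 28 by the overall mean; in CTL 8 h against 4 h they were 49, 11 and 11, and in CTL 12 h against 8 h 25, 5 and 4. For the inhibitor at 8 h they were 6, 0 and 0, and at 12 h the overall mean left 1. With 76 members, the 8 h inhibitor count of 2 became 4 with no filter on low counts, 7 with DESeq2, 8 with the oocyte marker covariate and 5 with the replicate block, which left the other counts within 1.5 times the main ones; the 12 h count of 2 became 4 with DESeq2, 4 with the covariate and 6 with only the groups compared. In CTL 12 h against 8 h the count of 14 became 8 with no filter and 23 with the covariate (20 higher, 3 lower). With each replicate left out, counts ran from 18 to 20 (CTL 4 h), 25 to 42 (CTL 8 h) and 42 to 59 (CTL 12 h against START), 10 to 24 (8 h against 4 h), 0 to 17 (12 h against 8 h), 0 to 1, 0 to 4 and 2 to 2 (inhibitor at 4, 8 and 12 h) and 0 to 0 (change with time); members numbered 74 to 85. At 8 h the inhibitor count was 0 without CTL 8 h replicate 1 or PCI 8 h replicate 1. The shares of counts ran from 0.207% to 0.308% (START), 0.204% to 0.248% and 0.181% to 0.273% (CTL and PCI 4 h), 0.174% to 0.198% and 0.176% to 0.194% (8 h), and 0.168% to 0.185% and 0.178% to 0.220% (12 h). Without Gm1965 they were 0.160% in CTL 8 h, 0.153% in PCI 8 h and 0.150% in CTL 12 h. The oocyte marker covariate turned the log2 fold change of CTL 12 h against START to 1.43 for 4933427D06Rik, 1.68 for Gm839, 1.01 for Gm15496, 0.89 for Gm15507, 0.99 for 2010001K21Rik and -0.38 for Oip5os1; the cause was not tested. Of 84 calls of named genes, 47 held under every alternative. Of the 84, 29 were lost when at least 1 replicate was left out, 20 with the oocyte marker covariate, 12 with only the groups compared, 2 with the replicate block and 0 with DESeq2. Another scaling (RLE factors or library size) turned the sign of none of these 84. Leaving out 1 of 3 replicates assumes the 2 left vary like the other groups. Depth limits the fold change of Gm31759 at 8 h, where its count was 0, to a lower bound, and leaves wide counting intervals where 3 counts were left.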

Other observations

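Peg13 lay lower with the inhibitor at every time, although no comparison passed. It had 25.1, 38.9 and 23.5 CPM against 42.8, 41.8 and 54.1 CPM at 4 h, 32.8, 41.8 and 35.9 CPM against 48.3, 55.0 and 57.5 CPM at 8 h, and 35.9, 36.8 and 30.1 CPM against 56.0, 51.6 and 53.6 CPM at 12 h, with no overlap at any of the 3 times. The log2 fold changes were -0.72 ± 0.22 (adjusted p = 0.413), -0.50 ± 0.22 (adjusted p = 0.282) and -0.64 ± 0.22 (adjusted p = 0.186; edgeR). Over its 14 alternatives the adjusted p ran from 0.0499 to 1 at 4 h, 0.0533 to 0.617 at 8 h and 0.0122 to 0.444 at 12 h. Groups that do not overlap were found for 2, 17 and 20 of the 76 lncRNAs at 4, 8 and 12 h (2.63%, 22.4% and 26.3%). The same held for 7.99%, 24.2% and 21.5% of all genes tested. By the edgeR test, 0.132%, 3.67% and 1.98% of all genes were called. Snhg18 had 12.3, 12.3 and 7.40 CPM in PCI 12 h against 19.3, 22.9 and 20.9 CPM in CTL 12 h (-0.97 ± 0.36, adjusted p = 0.249; 0.0217 to 0.603 over its alternatives), and Meg3 4.80, 3.15 and 4.78 CPM against 7.68, 11.5 and 5.22 CPM (-0.92 ± 0.34, adjusted p = 0.244; 0.12 to 0.68), both without overlap.

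Antisense or divergent partners of cumulus matrix and ovulation genes moved as well, most of them outside the 76. Of 6 tested on a list of 13, Has2os, Ptgs2os and Ptgs2os2 were higher and Foxl2os and Gata6os lower in CTL 4 h than in START. Ptgs2os and Ptgs2os2 were still higher at 12 h, and Foxl2os still lower. Among all genes tested, 16.2% were higher and 15.3% lower at 4 h, and 25.1% higher and 26.0% lower at 12 h.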
